A study of Mus musculus with 2 samples.

Results

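The genes described here are 10 of the 32285 listed in the files: Hk2, Gpi1, Pfkp, Aldoa, Tpi1, Gapdh, Pgk1, Eno1, Pkm and Ldha, which encode enzymes of glycolysis and of lactate formation. They were taken by symbol, and Gapdh was set against the other 9. The 10 symbols stand on 11 feature lines, because Aldoa has a second line for a separate locus just upstream. That second line held 31 UMIs (unique molecular identifiers, each marking 1 captured molecule) in control and 29 in sonKD, and it was kept apart from the 10.

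The cells were E14 mouse embryonic stem cells, a line of 129/Ola background, grown on gelatin in serum with leukaemia inhibitory factor and sodium pyruvate. The control library received a control small interfering RNA (siRNA), and the sonKD library an siRNA against Son, which encodes a nuclear speckle protein that takes part in splicing. Both groups were transfected with Lipofectamine2000, harvested 24 hours after transfection, frozen, thawed, sorted for exclusion of the dye 7-AAD and barcoded with 10x Genomics Single Cell 3' v3 chemistry. Each group was 1 library of 1 line, so there are no replicates and nothing could be tested. What the siRNA did and any other difference between the 2 libraries cannot be told apart. Intervals are at 95% and cover counting error only.

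Glycolysis splits glucose into pyruvate in the cytosol, first spending and then yielding ATP. Lactate dehydrogenase turns pyruvate into lactate and so returns the NAD+ that the Gapdh step uses. Pluripotent stem cells are known for high glycolytic flux even when oxygen is present, and Gapdh is often used as a reference gene for expression measurements.

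Cells were barcodes of 2500 UMIs and 1000 genes or more, in which mitochondrial genes gave at most 10% of UMIs. There were 4978 in control, with a median of 7737.5 UMIs, and 2731 in sonKD, with a median of 11612, and 2 barcodes occurred in both libraries. Summed over cells, the depth was 40902904 UMIs in control and 32032551 in sonKD. Son itself was at 169 CPM (UMIs per 1000000 UMIs) in control and 106 in sonKD, which is 62.7% of the control level (60.2 to 65.4). The 8 pluripotent stem cell markers summed to 8197 CPM in control and 9038 in sonKD, and none of the markers listed for fibroblasts, primitive endoderm, trophectoderm, mesoderm or neuroectoderm passed a mean of 10 CPM. The summed markers of each of those 5 lists lay between 4.09 and 8.55 CPM over both libraries, and Col3a1, Elf5 and Neurog2 had no UMI in either library. Mitochondrial genes made up 3.82% of UMIs in control and 4.19% in sonKD, and ribosomal protein genes 20.7% and 24.1%; their part in the results was not tested.

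Summed over all cells, the 10 enzyme genes as a group stood at nearly the same level in both libraries. Gapdh was well below its control level and Eno1 above it. Together they gave 6011 CPM in control and 5899 in sonKD, or 0.601% and 0.590% of all UMIs. The log2 ratio of sonKD over control for the sum was -0.03 (interval -0.036 to -0.018). Without Gapdh the other 9 summed to 5261 CPM in control and 5486 in sonKD, a log2 ratio of 0.06 (0.051 to 0.069). The ratios of single genes spread far wider than that of the sum, from Gapdh at -0.86 to Eno1 at 0.48.

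Gapdh encodes glyceraldehyde-3-phosphate dehydrogenase, which oxidises glyceraldehyde 3-phosphate with NAD+. It was counted in 30687 UMIs in control and 13245 in sonKD. That is a level of 750 CPM (742 to 759) in control and 413 CPM (406 to 421) in sonKD. The sonKD level was 55.1% of the control level (54.0 to 56.3), a log2 ratio of -0.86 (-0.89 to -0.83). Among the 8063 genes that averaged 10 CPM or more over both libraries, 0.211% had a lower ratio. The median of those 8063 ratios was -0.12, with a 5th percentile of -0.40 and a 95th of 0.25, so Gapdh lay below the range that holds most genes. Its ratio was also below that of Son, the targeted gene, at -0.67 (-0.73 to -0.61).

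Of the members in the first, ATP-spending phase, Pfkp alone stood as much as 1.2-fold lower in sonKD. Pfkp encodes the platelet-type phosphofructokinase, which phosphorylates fructose 6-phosphate at the committed step. It was at 130 CPM in control and 101 in sonKD, a log2 ratio of -0.36 (-0.42 to -0.29). Hk2, a hexokinase that phosphorylates glucose, had the fewest UMIs of the members, at 80.5 CPM in control and 73.8 in sonKD, with a log2 ratio of -0.12 (-0.20 to -0.047). Gpi1, the isomerase of glucose 6-phosphate, was at 249 and 243 CPM, and its ratio of -0.04 had an interval that included 0 (-0.081 to 0.0048). Aldoa, the aldolase that cleaves fructose 1,6-bisphosphate, had the second most UMIs in both libraries, at 1185 CPM in control and 1221 in sonKD (log2 ratio 0.04, interval 0.024 to 0.062). Tpi1, which interconverts the triose phosphates made by aldolase, was at 400.4 CPM in control and 413.2 in sonKD (0.05, interval 0.012 to 0.079). Gpi1, Aldoa and Tpi1 were thus nearly level between the libraries.

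Of the members that act after Gapdh, Eno1 was higher in sonKD and the others lay close to their control level. Pgk1, which makes the first ATP of the pathway from the product of Gapdh, was at 590 CPM in control and 539 in sonKD, a log2 ratio of -0.13 (-0.16 to -0.10) close to the median of all genes. Eno1, the enolase that forms phosphoenolpyruvate, was at 531 CPM (524 to 538) in control and 742 CPM (732 to 751) in sonKD. Its sonKD level was 139.7% of the control level, a log2 ratio of 0.48 (0.46 to 0.51), and 98.4% of the 8063 genes had a lower ratio. Eno1 and Gapdh were therefore the members farthest from the median of all genes, on opposite sides of it.

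Pkm, the pyruvate kinase gene whose alternative exons give the M1 and M2 forms, had the most UMIs, at 1208 CPM in control and 1301 in sonKD (log2 ratio 0.11, interval 0.088 to 0.13). A count per gene does not separate those forms. Ldha, the lactate dehydrogenase subunit typical of glycolytic cells, was at 887 CPM in control and 852 in sonKD (-0.06, interval -0.082 to -0.036). A trimmed-mean (TMM) scaling of the libraries moves every ratio up by 0.09, and under it Ldha (0.03) and Gpi1 (0.05) were higher in sonKD in place of lower.

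**Figure D1:**
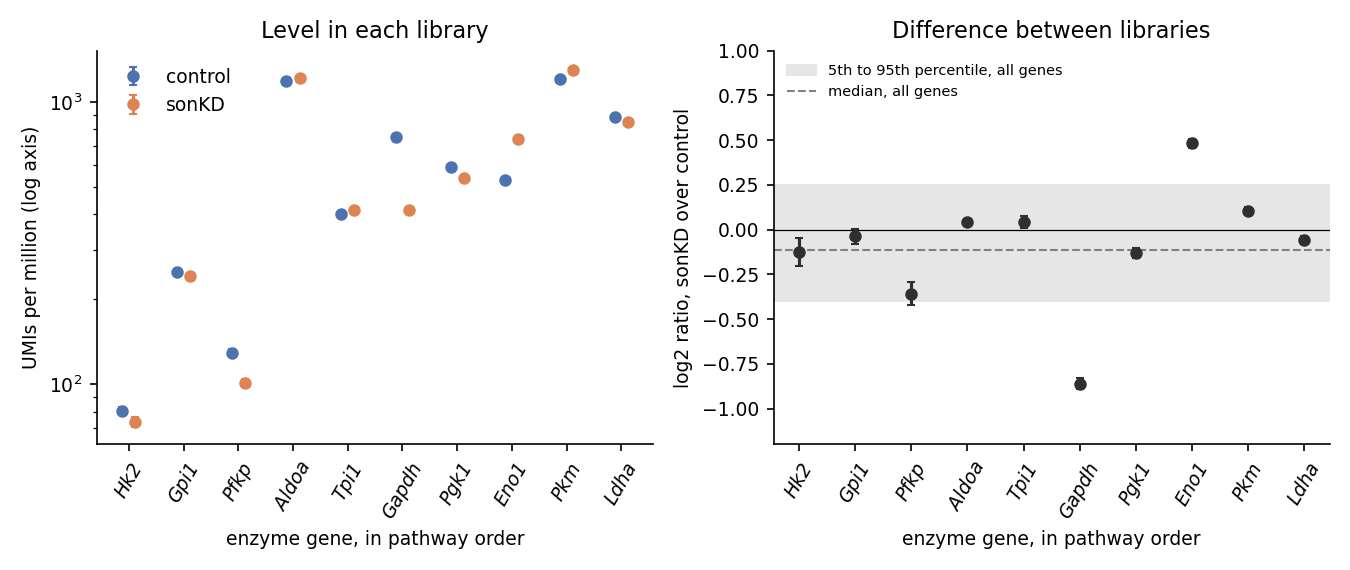
Left, CPM of each of the 10 enzyme genes in the control and sonKD cells, in pathway order, on a log axis. Right, the log2 ratio of sonKD over control, with the 5th to 95th percentile of 8063 genes in grey and their median dashed. Bars are 95% counting intervals, mostly smaller than the points. Gapdh lies at -0.86, below the grey band, and Eno1 at 0.48, above it.

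All 10 members passed the minimum of 10 CPM. Of them 2, Gapdh and Pfkp, were at least 1.2-fold lower in sonKD, where 17.6% of the 8063 genes were. Eno1 was the 1 member at least 1.2-fold higher, where 4.65% of genes were. The median log2 ratio was -0.05 over the 10 members and -0.04 over the 9 without Gapdh. In sign, 6 members were lower and 4 higher, and under TMM scaling the median of the 9 was 0.05. With so few members these shares do not set the group apart from other genes.

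Counts within the group do not depend on the library total. Gapdh made up 12.5% of the UMIs of the 10 genes in control (12.4 to 12.6) and 7.01% in sonKD (6.89 to 7.12). Its UMIs per UMI of each other enzyme were lower in sonKD for all 9, all of which share the same Gapdh counts. Gapdh over Pfkp changed least, from 5.79 to 4.09 (log2 difference -0.50), and Gapdh over Eno1 most, from 1.41 to 0.557 (-1.34). Gapdh over Pgk1, the next enzyme of the pathway, went from 1.27 to 0.767 (-0.73). Against Tpi1, the enzyme just before it, Gapdh went from 1.87 to 1.00 (-0.90).

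In the order of UMI levels, control ran Pkm, Aldoa, Ldha, Gapdh, Pgk1, Eno1, Tpi1, Gpi1, Pfkp and Hk2. In sonKD, Gapdh and Eno1 traded the 4th and 6th places and the other 8 genes kept theirs. Gapdh and Tpi1 did not differ beyond counting error in sonKD, at 413.5 and 413.2 CPM. A 3' UMI count marks 1 end of a transcript and is not expected to grow with its length. Set per kilobase of the longest coding transcript, Gapdh was the 2nd of the 10 in control, at 528 CPM per kb, and the 6th in sonKD, at 291. On that scale Eno1 moved from 262 CPM per kb, the 6th place, to 366, the 4th. Aldoa led in both libraries per kilobase, at 765 in control and 788 in sonKD.

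Most steps of the pathway have several isozymes, so the members were set beside those that were not members. The glyceraldehyde-3-phosphate dehydrogenase step rested on Gapdh for 99.9% of its UMIs in both libraries, and Gapdhs, the sperm form, gave 43 and 17 UMIs. Summed by step, that step had the lowest log2 ratio of the 11 measured, at -0.86, and enolase the highest, at 0.46. The phosphoglycerate mutase step, which lies between Pgk1 and Eno1, came next to Gapdh at -0.37, and Pgam1 made up 99.7% of its UMIs in control and 99.8% in sonKD.

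The leading isozyme of each step was the same in both libraries. Hk2 gave 64.7% of hexokinase UMIs in control and 67.1% in sonKD, and Hk1, the form of most adult tissues, 33.8% and 31.2%. Pfkl, the liver-type phosphofructokinase, gave 49.6% in control and 53.9% in sonKD (52.8 to 55.0), while Pfkp gave 45.9% and 41.6% (40.5 to 42.7) and Pfkm, the muscle type, 4.48% and 4.46%. The Pfkp share was thus lower in sonKD beyond counting error.

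Aldoa held 98.4% of aldolase UMIs in control and 98.9% in sonKD, with Aldoc, the brain form, at 1.60% and 1.12%. Pgk1 held 100% of the UMIs of its step, as Pgk2 had no UMI in either library, and Pkm held 99.97%. Tpi1 and Gpi1 were the only genes listed for their steps, so they have no share to compare. Ldha held 62.9% of lactate dehydrogenase UMIs in control and 65.3% in sonKD, and Ldhb, the heart-type subunit, 37.1% and 34.7%. Among enolases Eno1 held 89.4% and 90.6%, Eno3, the muscle form, 6.81% and 4.17%, and Eno1b 3.36% and 4.94%.

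Of the 20 other enzymes and isozymes of glycolysis, 10 passed 10 CPM. Their median log2 ratio was -0.23 beside -0.12 for all genes, with 4 at least 1.2-fold lower and 1 at least 1.2-fold higher. The lower ones were Aldoc (-0.47), Pgam1, which shifts the phosphate of 3-phosphoglycerate (1023 CPM in control and 790 in sonKD, -0.37), Bpgm, which makes 2,3-bisphosphoglycerate (-0.30), and Hk1 (-0.29). The higher one was Eno1b, with 815 UMIs in control and 1296 in sonKD, or 19.9 and 40.5 CPM (log2 ratio 1.02, interval 0.89 to 1.15), followed by Adpgk, which phosphorylates glucose with ADP, at 0.15 with an interval that included 0. Both enolase genes with almost the same coding sequence were thus higher in sonKD, and Pgam1 was lower, like Gapdh.

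Gapdh and Eno1 also stood apart in sequence. The share of 31-base words in the last 500 bases of the longest coding transcript that also occur in transcripts of other genes was 94.9% for Gapdh and 84.3% for Eno1. It was 23.2% for Aldoa, 16.2% for Gpi1, 11.1% for Pgk1, 2.55% for Tpi1, 1.28% for Hk2 and 0 for Pkm, Ldha and Pfkp. The transcripts were those of GENCODE M21 on GRCm38, and this comparison was chosen after the ratios were seen. Other genes sharing words with Gapdh numbered 253, of which 240 were pseudogenes and 6 were listed in the files, and 24 of the 253 shared at least 50% of them. Those sharing with Eno1 numbered 9, of which 8 were pseudogenes and Eno1b was the one listed.

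The coding ends show how close the copies are. The last 90 coding bases, stop codon included, are given for Gapdh and 2 separately listed copies, Gm10358 and Gm3839, and for Eno1 and Eno1b, with capitals at bases that differ from Gapdh or Eno1.
Gapdh: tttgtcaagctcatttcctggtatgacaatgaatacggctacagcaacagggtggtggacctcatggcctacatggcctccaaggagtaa
Gm10358: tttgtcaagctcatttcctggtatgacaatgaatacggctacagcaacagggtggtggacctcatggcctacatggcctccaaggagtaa
Gm3839: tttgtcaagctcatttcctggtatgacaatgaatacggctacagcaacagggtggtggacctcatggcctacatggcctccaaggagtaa
Eno1: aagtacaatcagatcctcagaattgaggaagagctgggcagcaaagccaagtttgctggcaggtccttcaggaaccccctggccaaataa
Eno1b: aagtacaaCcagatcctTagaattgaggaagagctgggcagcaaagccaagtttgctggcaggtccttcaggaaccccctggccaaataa

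Over these 90 bases the Gapdh copies were identical to Gapdh, and Eno1b differed from Eno1 at 2 bases. Gm10358 had 4 UMIs in each library, and Gm3839 had 19 in control and 15 in sonKD, while Eno1b had 815 and 1296. The 6 listed genes that share words with Gapdh held 677 UMIs in control and 503 in sonKD, most of them of Peli2 (646 and 467). Reads that match a gene and its copy equally well cannot be told apart, and how the authors' counting treated them is not given in the sources used here. The counts of Gapdh, Eno1 and Eno1b are uncertain for that reason.

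**Figure D2:**
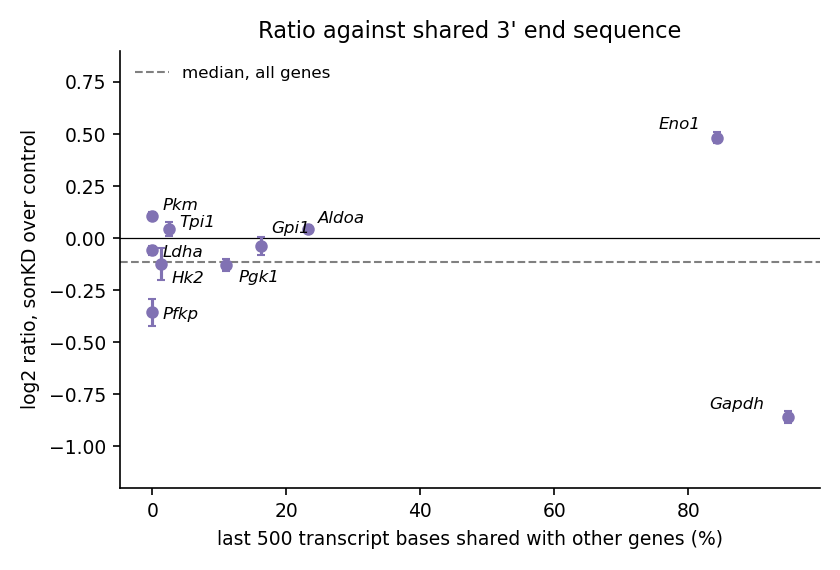
Log2 ratio of sonKD over control of each of the 10 enzyme genes against the share of its last 500 transcript bases, as 31-base words in percent, found in other genes. Bars are 95% counting intervals and the dashed line is the median of 8063 genes. Gapdh at 94.9% and Eno1 at 84.3% lie far to the right at opposite ratios, and the other 8 lie at 23.2% or less.

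Genes with over 50% shared 3' sequence had wider ratios, mostly toward higher values in sonKD. Among the 229 genes with over 50% shared, 41.9% were at least 1.2-fold away from 1 in either direction, and the 5th to 95th percentiles ran from -0.50 to 0.96. Among the 6574 with none, 21.5% were that far, and the range was -0.40 to 0.20. By direction, 17.0% of the 229 and 18.3% of the 6574 were at least 1.2-fold lower, which is nearly alike. At least 1.2-fold higher were 24.9% and 3.16%. In either direction it was 20.1% of the 758 genes with above 0 to 10% shared and 26.2% of the 500 with over 10 to 50%. A ratio as low as that of Gapdh was found for 4 of the 229 genes, Gapdh included, and for 9 of the 6574. A ratio as high as that of Eno1 was found for 27 and 58. The part of shared sequence in the ratios of Gapdh and Eno1 was not tested. Pgam1 and Pfkp, both lower in sonKD, shared 0% of their words.

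On the annotation Gapdh spans chr6:125161715-125166467 on the minus strand and Eno1 chr4:150236721-150248879 on the plus strand. Overlaps with other genes were found for 7 members. Pkm overlaps Gm49759 on its own strand, and Gapdh (Iffo1), Aldoa (Fam57b), Tpi1 (Spsb2), Hk2 (Gm17034), Pfkp (Pitrm1) and Gpi1 (Gm26762) overlap a gene on the opposite strand. The use of strand in the authors' counting is not given in the sources used here, so reads from an overlap may belong to either gene.

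The lower Gapdh level was present in every class of barcodes examined. In cells of 2500 to under 5000 UMIs Gapdh was at 699 CPM in control and 326 in sonKD (log2 ratio -1.10). From 5000 to under 10000 UMIs it was at 759 and 429 (-0.82), and from 10000 to under 20000 at 722 and 414 (-0.80). In cells of at least 20000 UMIs, 49 in control and 114 in sonKD, it was at 937 and 401 (-1.22). The ratio was thus -0.80 or lower in all 4 depth bands, which hold cells of like depth. Gapdh was also lower in barcodes left out of the cells: at 348 CPM in 625 control and 219 in 1056 sonKD barcodes with over 10% mitochondrial UMIs (-0.67), and at 607 and 370 in barcodes of 100 to 500 UMIs (-0.71).

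Eno1 was higher in sonKD in each of those bands, by 0.35, 0.38, 0.52 and 0.44 on the log2 scale. Pfkp was lower by interval in the middle bands, at -0.61 and -0.46, but its intervals included 0 in the shallowest band (-0.49, interval -1.02 to 0.0057) and in the deepest (0.05, interval -0.25 to 0.35). The sum of the 9 enzymes other than Gapdh gave -0.14, -0.08, 0.06 and -0.07 in the same order. Its direction differed between bands, and the band of 10000 to under 20000 UMIs, the 1 positive band, held 1770 of the sonKD and 940 of the control cells. Aldoa and Tpi1 followed that order of signs, at -0.29, -0.10, 0.10 and -0.18 for Aldoa and -0.09, -0.10, 0.06 and -0.21 for Tpi1. The median over all genes also differed between the bands, at 0.054, -0.16, -0.18 and -0.0043 in the same order. None of the band ratios, those of Gapdh included, is taken relative to that median.

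Per cell, Gapdh counts were shifted down in sonKD. To compare cells of unequal depth, 2500 UMIs were drawn at random from each, and no cell was too shallow for this. Control cells then held 1.84 ± 1.45 Gapdh UMIs (SD over 4978 cells), with a median of 2 and a highest value of 10. The sonKD cells held 1.05 ± 1.06 (SD over 2731 cells), with a median of 1 and a highest value of 8. The spread over cells is mostly counting noise and is no replicate error, and the distributions of the libraries overlapped.

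A Gapdh UMI was found in 82.1% of thinned control cells (81.0 to 83.1) and 63.5% of thinned sonKD cells (61.7 to 65.3). Before thinning the shares were 98.0% and 96.0%, at the different depths given above. More than the control median of 2 UMIs was found in 28.1% of control and 9.23% of sonKD cells. No Gapdh UMI was found in 17.9% and 36.5% of cells.

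Eno1 shifted the other way, from 1.28 to 1.83 UMIs per thinned cell. Cells with an Eno1 UMI made up 70.7% in control and 82.5% in sonKD. More than the control median of 1 UMI was found in 36.0% and 53.2%. Eno1 in sonKD and Gapdh in control thus had nearly the same mean and the same share of cells with a UMI.

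The remaining members changed little in the share of thinned cells with a UMI. That share was 92.9% in control and 93.7% in sonKD for Pkm, and 91.4% and 92.3% for Aldoa. It was 84.9% and 82.6% for Ldha, and 74.1% and 71.3% for Pgk1. Tpi1 was found in 59.0% and 60.5% of cells, and Gpi1 in 44.7% and 44.5%. Hk2 (18.3% and 16.1%) and Pfkp (24.6% and 20.8%) were found in the fewest cells. No cell type that lacks these genes was present to give a background share.

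**Figure D3:**
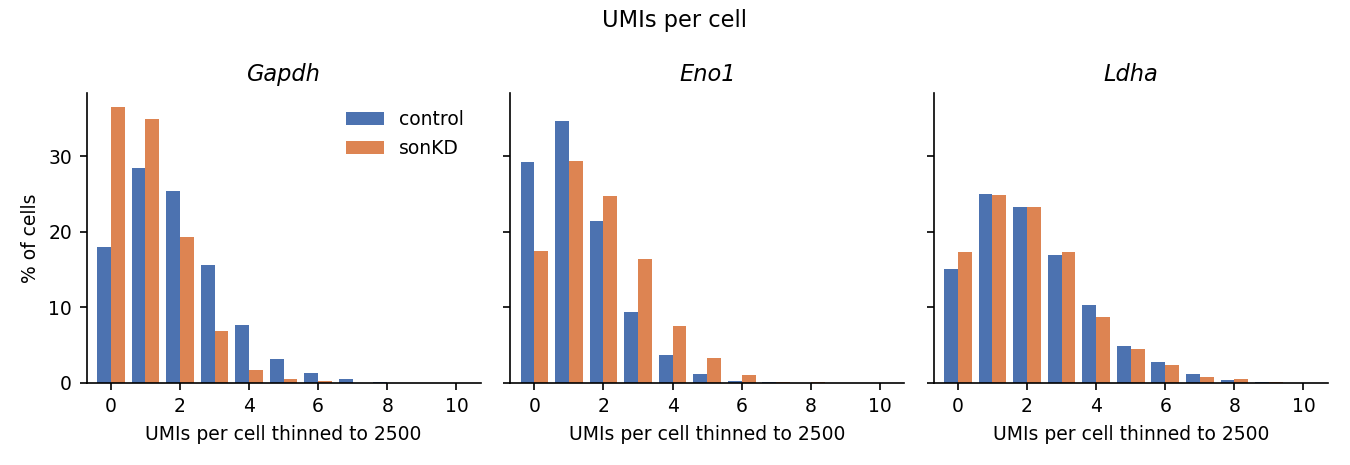
Percent of cells (vertical axis) at each number of UMIs of Gapdh, Eno1 and Ldha after thinning every cell to 2500 UMIs, for 4978 control and 2731 sonKD cells. The sonKD bars shift left for Gapdh, with 36.5% of cells at 0 against 17.9% in control, shift right for Eno1, and nearly coincide for Ldha.

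Spread beyond counting noise was measured as the squared coefficient of variation (CV) minus its Poisson part, among the 694 genes whose mean reached 0.5 UMI in thinned cells of each library. Tpi1 varied most of the members among these genes, at the 91.4th percentile in control and the 83.9th in sonKD. Pgk1 came next in control, at the 80.8th, and Ldha in sonKD, at the 79.5th. Gapdh stood near the middle, at the 55.9th percentile in control and the 46.4th in sonKD. Expressed as a CV, the excess spread of Gapdh was 27.4% in control and 26.8% in sonKD, so its relative spread over cells was alike at the lower level. Aldoa stood at the 77.2nd percentile in control and the 45.2nd in sonKD, and Eno1 (51.9 and 26.7), Gpi1 (76.2 and 55.5) and Pgk1 (60.5 in sonKD) also stood lower in sonKD.

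Over cells most enzyme genes tended weakly to be high together. Pearson's r of thinned counts had a median of 0.074 over the 45 pairs of members in control (n = 4978 cells) and 0.056 in sonKD (n = 2731). Over all 240471 pairs of the 694 genes the median was 0.0067 and 0.0050. Cells of a library share its depth and handling, counts are sparse, and values under 0.1 are read as weak. At least 0.1 was reached by 11 of the 45 pairs in control and 12 in sonKD. The 95th percentile over all 240471 pairs was 0.065 in control and 0.063 in sonKD. The 694 genes include 8 of the members, without Hk2 and Pfkp, and were not matched to the members in level.

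The closest pair in both libraries was Aldoa with Ldha, at 0.20 in control and 0.19 in sonKD. Aldoa with Tpi1 gave 0.17 in both, and Tpi1 with Ldha 0.15 and 0.19. Pgk1 with Tpi1 gave 0.15 and 0.13. Gapdh with Aldoa in control (0.16) and Pkm with Ldha and with Aldoa in sonKD (0.14 each) were of like size, while Hk2 had no pair of at least 0.1 in either library.

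**Figure D4:**
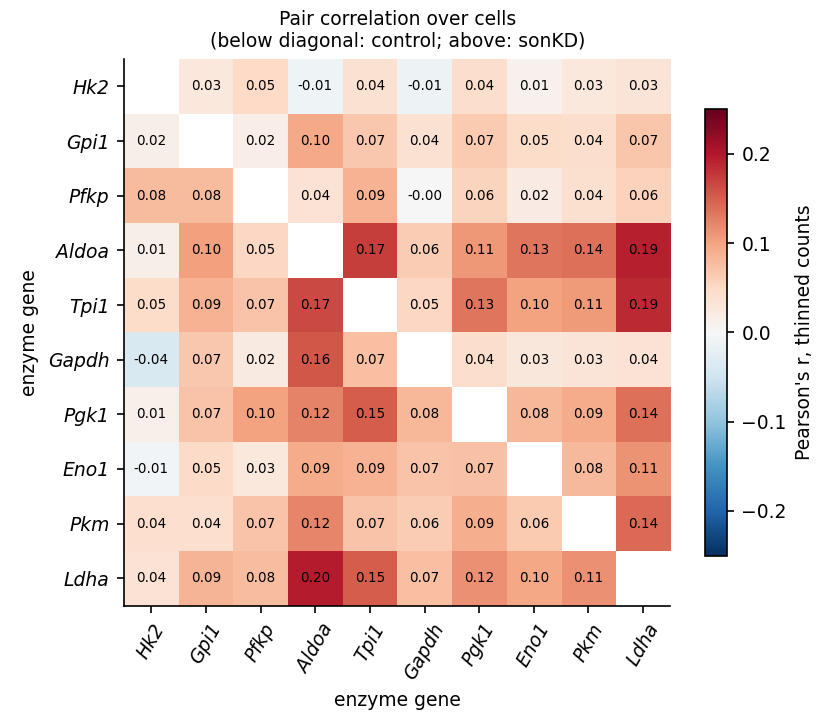
Pearson's r over cells of every pair of the 10 enzyme genes, in counts thinned to 2500 UMIs per cell, with control below the diagonal (4978 cells) and sonKD above it (2731 cells). The pair of Aldoa and Ldha is the darkest on both sides, at 0.20 and 0.19, and the sonKD values of Gapdh are pale, none above 0.064.

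In sonKD Gapdh with Aldoa gave 0.064. The median over the 9 pairs with Gapdh was 0.071 in control and 0.037 in sonKD, beside 0.079 and 0.068 over the 36 pairs without it. Against the sum of the other 9, Gapdh had r of 0.17 in control and 0.082 in sonKD, or 0.18 and 0.10 with another random draw. A lower count gives a lower r, and control Gapdh thinned to the sonKD mean of 1.05 UMIs had r of 0.13. With 1 library per group, whether r differs between the groups was not tested. With at most 5% mitochondrial UMIs the values were 0.14 and 0.047. Tpi1, at a like mean of 1.02 UMIs in sonKD, had r of 0.27 with its own 9 others there and 0.24 in control. Its excess spread in sonKD was wider than that of Gapdh, a CV of 41.8% against 26.8%, so these genes are not like for like. Eno1 in control, with a mean of 1.28 UMIs and an excess CV of 26.5%, had r of 0.16 with its own 9 others.

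For the rest, r with the other 9 in control was 0.29 for Aldoa, 0.26 for Ldha, 0.22 for Pgk1, 0.18 for Pkm, 0.16 for Eno1, 0.15 for Gpi1, 0.14 for Pfkp and 0.043 for Hk2. In sonKD it was 0.28, 0.28, 0.21, 0.20, 0.18, 0.13, 0.089 and 0.043 in the same order. Gapdh thus ranked 6th of 10 in control and 9th in sonKD, ahead of Hk2 alone.

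Cells were also placed in 5 equal parts by the summed UMIs of the 9 other enzymes. From the lowest part to the highest in control, that sum rose from 6.27 to 20.5 UMIs per cell and mean Gapdh from 1.47 to 2.16. In sonKD the sum ran from 6.51 to 20.9 and Gapdh from 0.938 to 1.18. Gapdh therefore made up a smaller share of the enzyme UMIs in cells with more of them, from 18.9% to 9.54% in control and from 12.6% to 5.37% in sonKD. That share holds Gapdh in its denominator and the sum was used to order the cells, which by itself lowers it along the order.

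Ribosomal protein genes led the genes whose counts followed those of Gapdh over cells. Among 693 genes r with Gapdh was at least 0.1 for 6.93% in control and 0.577% in sonKD. The first places in control were Rpsa (0.21), Rpl6, Rpl14, Rpl13 and Rpl8 (0.17), with Aldoa in the 7th place at 0.16. In sonKD they were Rpl32 (0.13), Rpl8, Rpsa, Rpl13 and Ftl1-ps1 (0.099), and Aldoa came 54th. Of the 7 other members with enough UMIs for this comparison, Aldoa reached 0.1 in control and none did in sonKD.

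Measures of the cell were set against Gapdh and against the sum of the other 9. That sum has more UMIs than 1 gene, and can reach a larger r, so the pairs of values below are not like for like. Total UMIs before thinning had r of 0.16 with the sum of the 9 in control and 0.20 in sonKD, and of 0.017 and 0.0071 with Gapdh. The mitochondrial share had r of -0.31 and -0.34 with the 9, and of -0.12 and -0.063 with Gapdh. Both relations were weaker in cells with at most 5% mitochondrial UMIs, a setting run for all members summed, Gapdh included. For that sum, r with the mitochondrial share went from -0.32 to -0.18 in control and from -0.34 to -0.15 in sonKD. Its r with total UMIs went from 0.15 to 0.064 in control and from 0.20 to 0.051 in sonKD. The cause of these moves was not tested. Ribosomal protein UMIs had r of 0.22 and 0.15 with the 9, and of 0.26 and 0.15 with Gapdh. Malat1, a nuclear noncoding RNA, had r of -0.19 and -0.20 with the 9, and of -0.16 and -0.088 with Gapdh. Some single enzymes were close to Gapdh: in control r with the mitochondrial share was -0.13 for both Eno1 and Tpi1 and -0.11 for Pgk1, and r with total UMIs was 0.018 for Gpi1 and 0.031 for Eno1.

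The sum of the 9 also followed a list of 16 genes of the hypoxia response without glycolysis genes, with r of 0.21 in control and 0.20 in sonKD. For Gapdh alone the values were 0.033 and 0.027. Among single members, Pfkp (0.16), Pgk1 (0.15), Ldha (0.12) and Tpi1 (0.11) had the highest r with that list in control. The other 5 were under 0.1 there, from Aldoa (0.093) to Eno1 (0.042), which was close to Gapdh. In sonKD the highest were Tpi1 and Ldha (0.14 each), Pgk1 (0.11), and Pfkp and Aldoa (0.10 each). These cells were not labelled as hypoxic, and the list had a mean of 1.30 UMIs per thinned cell in control and 1.26 in sonKD.

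The S phase list, the G2/M phase list and the citric acid cycle list each had r under 0.1 in size with both Gapdh and the 9. For the citric acid cycle list this depended on the draw and the depth. Its r with the summed 10 members in sonKD was 0.075, and 0.14 with another seed, and with cells thinned to 5000 UMIs it was 0.13 in control and 0.12 in sonKD. The pluripotent list had r of 0.12 with Gapdh and 0.10 with the 9 in control, and of 0.061 and 0.016 in sonKD. For ribosomal protein UMIs r was negative for Hk2, at -0.12 in both libraries, and for Pfkp, at -0.034 in control and -0.036 in sonKD. Aldoa, Eno1 and Gapdh had values of 0.21, 0.11 and 0.26 in control.

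**Figure D5:**
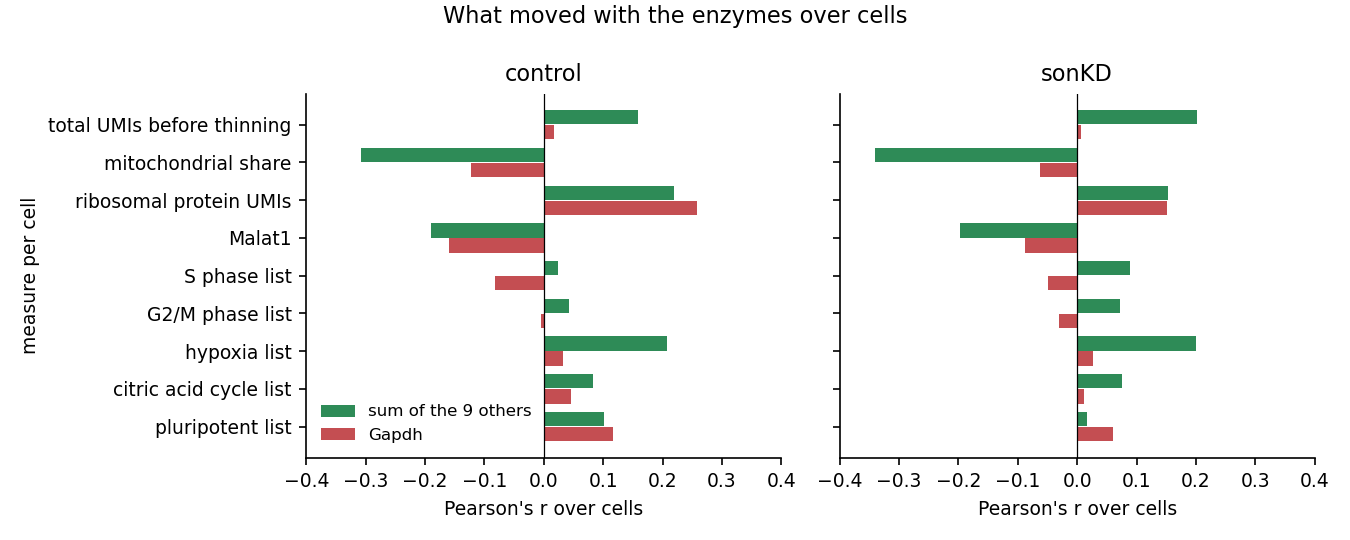
Pearson's r over cells of 9 measures per cell with the sum of the 9 enzyme genes other than Gapdh (green) and with Gapdh (red), in control (left, 4978 cells) and sonKD (right, 2731 cells). The sum holds more UMIs than Gapdh, so bar lengths are not like for like. The bars of the mitochondrial share are the longest for the sum, at -0.31 and -0.34, and those of ribosomal protein UMIs for Gapdh, at 0.26 and 0.15.

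Among 1917 genes that were not members, all averaging 0.2 UMI or more in thinned cells of each library, the summed 10 members were most closely followed by Mif, a cytokine gene, with r of 0.23 in control and 0.24 in sonKD. Pgam1, the mutase of the same pathway, came next at 0.21 and 0.18. Tdgf1, a co-receptor gene of pluripotent cells, had 0.18 in both, and Eif5a, Upp1, Tubb5, H2afz, Rpl14, Actg1 and Ppia followed. At least 0.1 in both libraries was reached by 53 of the 1917. The lowest were mt-Co3 (-0.27 and -0.33), mt-Atp6, mt-Co2, mt-Cytb and Malat1 (-0.22 and -0.21). Mif had 61.7% of its 3' end shared with other genes and Pgam1 0%.

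Promoter windows from RefSeq on GRCm38.p6 (250 bases before to 50 after a transcript start) were found for all 10 members, 16 windows in all. They were searched on both strands for ACGTG, a form of the core of the element bound by hypoxia-inducible factors. Other forms of that core were not searched. Also searched was CACGTG, the E-box bound by factors such as Myc, which contains ACGTG on each strand. ACGTG was found in 7 of the 16 windows, from 6 genes, and in 19.6% of all 32841 promoters. CACGTG was found in 1 window, of Ldha, and in 7.15% of promoters. GGGCGG, bound by Sp1, was found in 11 windows (35.7% of promoters), CCAAT in 9 (37.4%) and TATAAA in none (13.6%). Some windows of the same gene overlap, and a match is a description of the letters and not a binding site.

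Windows of 3 genes are shown for contrast, Gapdh as the member set apart and Aldoa and Ldha as the closest pair over cells, with capitals at ACGTG or CACGTG on either strand. The windows are chr6:125165724-125166023 (minus strand) for Gapdh, chr7:126799205-126799504 (minus strand) for Aldoa and chr7:46845554-46845853 (plus strand) for Ldha.
Gapdh promoter: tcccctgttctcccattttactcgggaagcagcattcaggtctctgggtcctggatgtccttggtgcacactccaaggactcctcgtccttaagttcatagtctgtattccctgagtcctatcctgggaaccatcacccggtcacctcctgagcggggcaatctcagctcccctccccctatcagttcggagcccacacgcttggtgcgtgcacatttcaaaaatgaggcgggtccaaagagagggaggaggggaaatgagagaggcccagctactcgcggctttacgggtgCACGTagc
Aldoa promoter: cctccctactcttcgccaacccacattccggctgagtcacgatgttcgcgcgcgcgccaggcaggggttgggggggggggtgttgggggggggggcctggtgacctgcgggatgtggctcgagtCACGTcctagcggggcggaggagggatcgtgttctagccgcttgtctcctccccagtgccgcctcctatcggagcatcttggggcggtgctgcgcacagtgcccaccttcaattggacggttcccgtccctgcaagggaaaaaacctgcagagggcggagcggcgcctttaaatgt
Ldha promoter: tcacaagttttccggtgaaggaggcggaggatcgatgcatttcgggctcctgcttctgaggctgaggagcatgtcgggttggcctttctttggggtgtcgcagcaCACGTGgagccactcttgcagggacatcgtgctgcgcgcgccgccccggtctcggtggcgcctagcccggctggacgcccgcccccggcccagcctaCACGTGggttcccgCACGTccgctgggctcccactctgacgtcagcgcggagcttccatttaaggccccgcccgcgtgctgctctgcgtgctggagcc

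The Gapdh window held 1 ACGTG match and no GGGCGG. The Aldoa window held 1 ACGTG match and 3 of GGGCGG. The Ldha window held 5 ACGTG matches, of which 4 lie in 2 CACGTG sites counted on both strands, and 3 of GGGCGG. Tpi1, Pfkp, Gpi1 and Eno1 had no ACGTG in their windows, and the others had at least 1 window with it.

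Most genes around the pathway were lower in sonKD, as the median gene was at -0.12. Of 8 transporters of glucose and lactate and their partner, 5 passed 10 CPM, with a median log2 ratio of -0.26, 2 at least 1.2-fold lower and none higher. Slc2a1, the main glucose carrier of proliferating cells, was at 215 CPM in control and 163 in sonKD (-0.40, interval -0.45 to -0.35). Slc16a1, a carrier of lactate and pyruvate, was at -0.30, Slc2a3, the high-affinity glucose carrier, at -0.18, and Bsg, which escorts lactate carriers to the membrane, at -0.07. All 5 were thus below their control level, although Bsg was at 0.02 under TMM scaling.

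Of 15 regulators and genes of pyruvate entry into mitochondria, 8 passed, with a median of -0.17, 1 lower by 1.2-fold and none higher. Mpc1, a subunit of the mitochondrial pyruvate carrier, was at 62.1 CPM in control and 47.5 in sonKD (-0.39), and Pdha1, of pyruvate dehydrogenase, at -0.22. Pdhb (0.06) and Pdk1 (0.01) were the highest, both with intervals that included 0. In the pentose phosphate pathway, which branches off at glucose 6-phosphate, 6 of 7 genes passed, none past 1.2-fold in either direction, with a median of -0.11. Its range ran from Taldo1 (-0.25) and Pgd (-0.17) to Rpe (-0.08) and G6pdx (0.03).

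All 16 citric acid cycle genes passed, with a median of -0.09, 3 at least 1.2-fold lower and 2 higher. The highest were Sdhd, a subunit of succinate dehydrogenase (69.3 CPM in control and 92.0 in sonKD, 0.41), and Fh1, the fumarase (50.8 and 66.2 CPM, 0.38). The lowest were Idh3g (-0.39) and Sdhc (-0.27), so subunits of succinate dehydrogenase lay on both sides.

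Of 16 hypoxia response genes other than glycolysis genes, 11 passed, with a median of -0.20, 3 lower by 1.2-fold and none higher. Vegfa, the vascular growth factor, was at 16.1 CPM in control and 11.3 in sonKD (-0.51), and Egln3, an oxygen-sensing hydroxylase, at -0.45. Higd1a (0.16) and Ddit4 (0.15, interval including 0) were the highest. Over the 41 of 42 S phase genes that passed, the median was -0.13, from Uhrf1 (-0.59) and Mcm2 (-0.35) to Ung (0.14) and Cdca7 (0.56), with 5 lower and 1 higher by 1.2-fold. Over 52 G2/M genes the median was -0.17, with 8 lower and none higher, from Birc5 and Cdca3 (-0.38 and -0.37) to Cks1b (0.14) and Cdk1 (0.25).

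Gapdh is itself a common reference gene, and 12 of 13 others passed 10 CPM. Their median log2 ratio was -0.06, with 2 at least 1.2-fold lower and none higher. The lowest were Tfrc (147 CPM in control and 106 in sonKD, -0.47) and Rpl13a (-0.27), and the highest Actb (1538 and 1695 CPM, 0.14) and Ppia (0.11). None of the 13 was as low as Gapdh. Hprt had 12 and 9 UMIs and was not among the 12.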

How the data were processed

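The values are whole-number counts of UMIs for every gene in every barcode, deposited with no selection of cells. Per the file headers they come from Cell Ranger 7.1.0, and the build is mm10, per the submitters' processing notes. The annotation, the treatment of intronic reads and of reads with several matches, and the use of strand are not given in the sources used here. Gene positions, transcripts and shared words come from GENCODE M21 on GRCm38, in which 32158 of the 32285 gene identifiers occur.

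The members, lists and comparisons were chosen with earlier results of these data known. Cells needed at least 2500 UMIs, 1000 genes and at most 10% mitochondrial UMIs. Counts were summed over cells and divided by the library sum to give CPM. Ratios carry no pseudocount, with 3 as the smallest count used. Genes averaging 10 CPM or more gave the background, and 1.2-fold was the limit of a count. Levels have exact Poisson intervals, ratios exact conditional binomial ones, and shares exact Clopper-Pearson ones. With 1 library per group nothing was tested.

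For values per cell, each cell was thinned to 2500 UMIs with a fixed seed. A correlation corrected for counting noise was planned, but on simulated data it was imprecise at these levels and is not given. Scrublet called 0.0603% of control and 0.0366% of sonKD cells as doublets, under the 0.5% of a working call, so doublets were kept and an alternative removed 3.98% and 2.20% by rate.

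Named were all members, from each list the 2 highest and 2 lowest ratios of genes passing 10 CPM, every isozyme with at least 1% of its step (1 is not reported here), and the 10 highest and 5 lowest correlates of the summed members. Other genes were chosen after their values were seen, among them Son, Gapdhs, the Gapdh copies, the leading correlates of Gapdh and the genes overlapping members. Lists were the other glycolysis enzymes, transport, regulators and pyruvate entry, pentose phosphate pathway, citric acid cycle, hypoxia response, reference genes, S phase, G2/M phase and markers of 6 cell types. Software was Python 3.11.15, numpy 2.4.6, scipy 1.17.1, pandas 2.3.3, scanpy 1.11.5, R 4.3.3 and edgeR 4.0.16 (TMM factors only).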

Additional observations from a re-analysis of the deposited data

Results flagged for a closer look

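Barcodes outside the cells also held the enzyme transcripts. In barcodes with over 10% mitochondrial UMIs, the summed 10 genes had a log2 ratio of sonKD over control of 0.15, and in barcodes of 100 to 500 UMIs it was 0.050, beside -0.03 in the cells. These values drew attention because they come from barcodes left out of the cells. In both classes Gapdh was lower and Eno1 higher in sonKD, as in the cells, with log2 ratios of -0.67 and 0.54 in the barcodes high in mitochondrial UMIs and of -0.71 and 0.78 in those of 100 to 500 UMIs.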

How the results depend on the processing

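No paired analysis was possible because each group held 1 sample, and for the same reason no replicate could be left out. Scaling moved the ratios most. With TMM factors the log2 ratio of Gapdh was -0.77, the median of the 9 other enzymes 0.052 and Ldha reversed to 0.031. With a total that leaves out mitochondrial and ribosomal protein genes these were -0.79, 0.036 and 0.015. The count of all genes at least 1.2-fold lower, 1416, became 412 at a mean of 50 CPM, 4500 with no filter and 609 with TMM factors, and the count higher, 375, became 208, 7545 and 637. The members past 1.2-fold stayed at 2 lower and 1 higher in count under those 3 settings. With at most 5% mitochondrial UMIs the Gapdh share in sonKD was 6.87% and the r of Gapdh with the 9 others in control 0.14. With cells thinned to 5000 UMIs that r in control was 0.24 and the median pair correlation in control 0.12. Without thinning, on log2(counts per 10000 + 1), r of Gapdh with the 9 was 0.33 in control and 0.25 in sonKD, the median pair correlation 0.19 and 0.18, and all 9 measures per cell reached 0.1 in size with 1 sign in both libraries, in place of 5. That setting keeps each cell's own depth, and the cause of the other moves was not tested. A minimum of 5000 UMIs, removal of doublets by rate, the mean of CPM per cell, a pseudocount, Spearman's rho and another seed left the levels, ratios and correlations of Gapdh and the median pair correlation within their counting interval or spread. Some other values moved past theirs. The Ldha share in control was 63.4% at a minimum of 5000 UMIs, and the Ldhb share moved with it. By Spearman's rho the summed members had 0.16 with the hypoxia list in both libraries. With another seed their r was 0.035 with the S phase list in control and 0.14 with the citric acid cycle list in sonKD. Depth limits Hk2 and Pfkp most, each found in under 25% of thinned cells.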

Other observations

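Gapdh is often the gene others are divided by. Divided by Gapdh in place of the library total, the median log2 ratio of all 8063 genes was 0.74. The 13 other reference genes then ran from 0.39 for Tfrc to 1.00 for Actb, and all 13 were higher in sonKD, where 8 of the 12 that passed 10 CPM were lower by the library total. That all 13 were higher follows from the Gapdh ratio being below each of theirs. Hprt, which did not pass 10 CPM, had too few UMIs to give a direction by the library total. These values were computed after the Gapdh ratio was seen, and they share the same Gapdh counts.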
